A study of Mus musculus with 8 samples.

Results

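Heat shock proteins and chaperones were described in mouse dendritic cells, as the 80 genes, of 23420 in the deposited table, whose symbols name an Hsp90, Hsp70, Hsp110, Hsp60, Hsp10 or small heat shock protein, an Hsp-binding protein, a DnaJ protein of class A, B or C, or a CCT subunit. Symbols of pseudogenes (with "-ps") were left out. The symbols alone set the members, but the high Hspa1a level of WT LPS replicate 1 was already known when the genes were compared library by library, so that value is a description. The cells came from mice with a Gata1 knock-out (KO) or from wild-type mice (WT), were stimulated with LPS or left at steady state, and gave 2 libraries for each of 4 groups: KO with LPS, WT with LPS, KO at steady state and WT at steady state. LPS, a bacterial lipopolysaccharide, is sensed by toll-like receptor 4, and Gata1 encodes a blood lineage transcription factor. The study's design text calls the libraries biological replicates, without saying whether they came from separate animals, so that p-values measure only the spread between these libraries. The sources used here do not state how Gata1 was deleted, the dose and length of LPS treatment or the origin of the dendritic cells.

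Chaperones help proteins fold and keep unfolded ones from clumping. Hsp70 proteins grip exposed stretches of a chain in an ATP-driven cycle that DnaJ proteins start and that Hsp110 proteins reset, Hsp90 acts later on proteins that are nearly folded, and the CCT ring folds actin and tubulin. Stress in the cytosol induces a part of these genes through heat shock factor 1, and stress in the endoplasmic reticulum induces another part through the unfolded protein response. In dendritic cells, chaperones are known for binding peptides that are later presented to T cells, and the endoplasmic reticulum Hsp90, encoded by Hsp90b1, for folding toll-like receptors and integrins.

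Both induction routes act on short DNA motifs close to the start of transcription, which are shown here for 6 genes whose values are described further on. Promoter windows of 300 bases (250 before and 50 after the start) came from RefSeq, build GRCm38.p6, and were found for 66 of the 80 genes. Capitals mark the motif in each stretch, read 5′ to 3′ along the strand of the gene.
Hspa1a, chr17:34972223-34972290, minus strand: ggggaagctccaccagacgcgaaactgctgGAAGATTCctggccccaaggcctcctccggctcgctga
Dnajb6, chr5:29735822-29735894, plus strand: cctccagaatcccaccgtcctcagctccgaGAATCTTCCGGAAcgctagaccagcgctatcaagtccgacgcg
Hspd1, chr1:55088029-55088106, minus strand: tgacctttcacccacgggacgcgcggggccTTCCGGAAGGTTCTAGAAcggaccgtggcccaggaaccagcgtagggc
Hspa5, chr2:34771995-34772073, plus strand: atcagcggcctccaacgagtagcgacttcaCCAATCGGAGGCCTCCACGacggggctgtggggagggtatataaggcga
Dnajc3, chr14:118937797-118937875, plus strand: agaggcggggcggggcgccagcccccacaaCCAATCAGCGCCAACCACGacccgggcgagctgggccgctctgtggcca
Hsp90b1, chr10:86705503-86705686, minus strand: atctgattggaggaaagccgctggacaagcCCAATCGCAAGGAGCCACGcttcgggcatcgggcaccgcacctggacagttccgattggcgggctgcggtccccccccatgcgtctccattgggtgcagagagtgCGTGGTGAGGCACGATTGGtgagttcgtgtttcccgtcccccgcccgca

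The first 3 stretches hold letters of the heat shock element. Its form with 3 units, GAANNTTCNNGAA on either strand, was in 6 of 85 windows of these genes (7.06%) and in 0.603% of the 32851 windows of all genes. The 4 genes with it were Dnajb6, Hspd1, Hspe1 and Hsph1, and in Hspd1 and Hspe1 a pair of such matches overlapped. The matches of Hspd1 and Hspe1 are the same bases, read from opposite strands. Dnajb6 and Hsph1 each had overlapping windows that hold the same match. The 6 windows thus hold fewer separate sites, and overlapping windows were not merged, here or over all genes. The form with 2 units was counted in both arrangements, GAANNTTC or TTCNNGAA, each of which is a part of the longer one. One or the other was in 23.5% of the windows of these genes and in 15.1% of all windows. The 18 genes with it included Hspa1a, Hspa1b and Dnajb4. The stretch shown for Hspa1a is identical in Hspa1b, and the 300-base windows of both genes were 98.7% identical. The last 3 stretches hold the endoplasmic reticulum stress element, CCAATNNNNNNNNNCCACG on either strand, which was in the windows of Hspa5, Dnajc3 and Hsp90b1 among these genes (3.53% of their windows) and in 0.119% of all windows. In Hsp90b1 it occurred once on each strand. These matches are letters in a window and say nothing of binding in these cells.

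Total counts were 8005151 to 15495249 per library. Of the 80 genes, 68 were among the 12442 that passed a filter on low counts and were tested. The other 12 (Dnajb3, Dnajb7, Dnajb8, Dnajc6, Cct6b, Hspa12b, Hspb1, Hspb2, Hspb3, Hspb7, Hspb8 and Hspb9) stayed at or below 1.19 read counts scaled to library size (CPM) in every library. Hspb1, the most studied small heat shock protein and itself a heat shock factor 1 target, had 1 and 2 reads in KO with LPS, 9 and 0 in WT with LPS, 0 and 0 in KO at steady state and 0 and 3 in WT at steady state. Reads of Gata1 were 0 in all 4 KO libraries, 0 and 1 in WT with LPS and 1 and 10 in WT at steady state. Dendritic cell markers (8 of 8 measured) summed to 4486 and 9762 CPM in KO with LPS, 16163 and 10068 CPM in WT with LPS, 20915 and 19936 CPM in KO at steady state and 28396 and 15792 CPM in WT at steady state. In KO this sum was lower with LPS, and with LPS it was higher in KO replicate 2 and WT replicate 1. H2-Ab1, H2-Aa and Cd74 made up most of it, and other markers went otherwise. Itgax, Flt3, Zbtb46, Ccr7 and Cd86 were lower in KO LPS replicate 2 than in replicate 1. Flt3, Zbtb46 and Ccr7 were also lower in WT LPS replicate 1 than in replicate 2. Cd86 had 78.8 and 64.8 CPM in KO with LPS, against 67.2 and 82.1 CPM in KO at steady state. Macrophage markers (5 of 6 measured) summed to 1857 and 1441 CPM in KO with LPS, 857 and 649 CPM in WT with LPS, 2259 and 2393 CPM in KO at steady state and 2025 and 1517 CPM in WT at steady state. This sum was lower with LPS in each genotype and, with LPS, higher in KO than in WT. Csf1r made up most of it, and Fcgr1 was higher with LPS in KO. Neutrophil, mast cell and basophil, and B cell markers were highest in WT at steady state replicate 2, with sums of 192.6, 88.4 and 29.97 CPM, T cell and erythroid markers summed to at most 0.520 and 0.853 CPM, and Hba-a1 was at 0 in every library. The part of these cells in the results was not tested, and in bulk RNA fewer cells of a type and less RNA per cell cannot be told apart.

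Libraries of a group were less alike with LPS. Over all genes tested, the SD of log2 CPM between libraries of a group had a median of 0.355 in KO with LPS, 0.463 in WT with LPS, 0.111 in KO at steady state and 0.196 in WT at steady state. Of 67 of these genes with a matched transcript, 32 had no stretch of 50 bases in their transcript that another gene of the GENCODE M21 annotation shared. For 6 of them (Hspa8, Hspa1l, Hspa1a, Hspa1b, Hsp90aa1 and Dnaja4) only 25.2 to 48.1% of such stretches were found in no other gene. The share was 57.2% for Dnajb6 and 55.2% for both Hspd1 and Hspe1, and 18 of the 67 genes were under 90%. The handling of reads that match several genes is not stated in those sources. The counts of the 6 genes are therefore uncertain, and to a lesser degree those of the others with shared stretches.

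Per length of transcript, Hsp90ab1, the constitutive cytosolic Hsp90, had the highest mean level over the 8 libraries, 493.0 CPM per kb. Hspa5, the Hsp70 of the endoplasmic reticulum (BiP), had a mean of 453.5 CPM per kb and Hsp90b1 one of 316 CPM per kb, but their order depended on the library. Hspa5 was at 1312 CPM per kb in KO LPS replicate 2 and 1021 CPM per kb in WT LPS replicate 1, above Hsp90ab1 with 421 and 597 CPM per kb in the same libraries. In all 4 steady-state libraries Hspa5, at 155 to 219.8 CPM per kb, was below Hsp90b1, at 208 to 325 CPM per kb. Of the CCT subunits tested, Cct2, Cct3, Cct4, Cct5, Cct7 and Cct8 lay between 59.5 and 82.0 CPM per kb, and Hspa9, the mitochondrial Hsp70, was at 72.9 CPM per kb. The 80 genes together had 7102.3 and 12942 CPM in KO with LPS and 12811 and 6804.8 CPM in WT with LPS, against 6434 and 6131 CPM in KO and 6431 and 6143 CPM in WT at steady state. One LPS library of each genotype, KO replicate 2 and WT replicate 1, thus stood well above the other 6. The Hsp70 and Hsp110 family held most of that difference, and in it Hspa5, whose values follow. The family had 2104 and 6074 CPM in KO with LPS and 5912 and 1475 CPM in WT with LPS, against 1342 and 1227 CPM in KO and 1251 and 1115 CPM in WT at steady state.

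**Figure D1:**
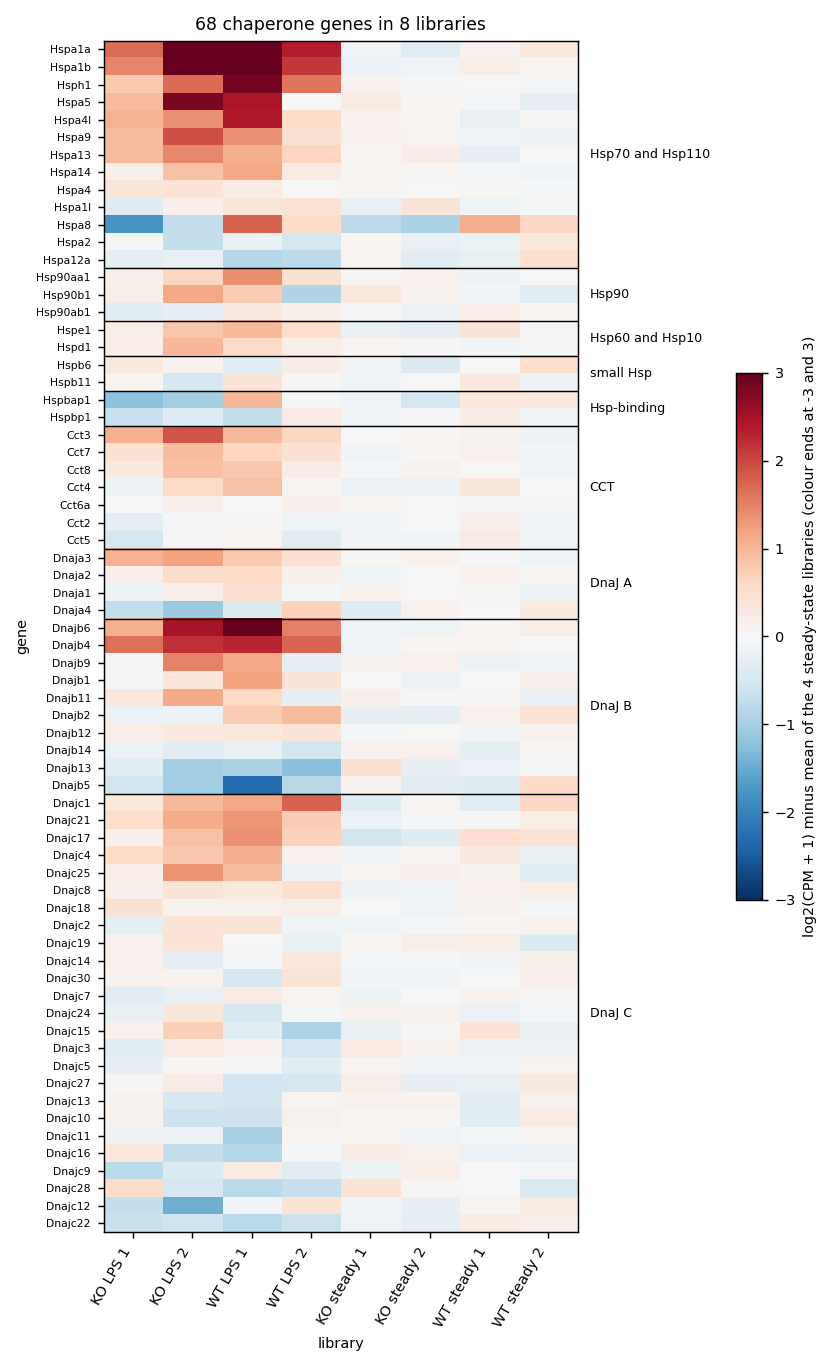
Levels of the 68 chaperone genes that passed the filter (rows, by family) in each of the 8 libraries (columns), as log2(CPM + 1) minus the mean of the 4 steady-state libraries. KO LPS 2 and WT LPS 1 hold the strongest colours, led by Hspa1a, Hspa1b, Hsph1, Hspa5 and Dnajb6. The steady-state libraries are close to 0 for most genes, but Hspa8 is below 0 in KO and above 0 in WT at steady state.

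With LPS against steady state, the genes called higher were Dnajb4, Dnaja3, Cct3 and Hspa13 in KO cells and Dnajb4 and Hsph1 in WT cells, and no chaperone gene was called lower (edgeR quasi-likelihood test, Benjamini-Hochberg adjusted p under 0.05 over all genes). That was 4 of 68 (5.88%) in KO, where 11.8% of all genes tested were called and 5.3% were called higher. It was 2 of 68 (2.94%) in WT, where 6.49% of all genes were called and 3% were called higher. The share of chaperone genes called higher was near that of all genes in both genotypes. The median log2 fold change of the 68 genes was 0.23 in KO and 0.26 in WT, against -0.02 in KO and 0.00 in WT over all genes. Both LPS libraries lay above both steady-state libraries for 33 of the 68 genes in KO (48.5%, against 34.4% of all genes) and for 28 in WT (41.2%, against 27.5% of all genes). Both lay below for 13 genes in KO (19.1%, against 38.2% of all genes) and for 8 in WT (11.8%, against 29.1% of all genes).

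Dnajb4, a class B DnaJ partner of cytosolic Hsp70, had 43.2 and 62.6 CPM in KO with LPS and 67.3 and 45.6 CPM in WT with LPS, against 11.9 and 13.5 CPM in KO and 13.5 and 13.1 CPM in WT at steady state. All 4 LPS libraries lay above all 4 steady-state libraries. Its log2 fold change was 2.06 ± 0.30 (SE) in KO (edgeR adjusted p = 0.0105) and 2.08 ± 0.30 in WT (edgeR adjusted p = 0.0117). It was the chaperone gene called in both genotypes. It kept its call without any 1 library except KO steady-state replicates 1 and 2 and KO LPS replicate 2 in KO, and WT steady-state replicates 1 and 2 in WT. Its log2 fold changes then ran from 1.75 to 2.30 in KO and from 1.78 to 2.34 in WT.

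Hsph1, the inducible Hsp110 that resets Hsp70, had 107 and 201 CPM in KO with LPS and 451 and 187 CPM in WT with LPS, against 65.4 and 58.6 CPM in KO and 60.7 and 59.9 CPM in WT at steady state. Again all 4 LPS libraries were above all 4 steady-state ones, and WT LPS replicate 1 was the highest. The log2 fold change was 2.40 ± 0.48 in WT (edgeR adjusted p = 0.0307) and 1.31 ± 0.46 in KO (edgeR adjusted p = 0.103). The difference of these responses, KO minus WT, was -1.09 ± 0.65 on the log2 scale (edgeR adjusted p = 0.898). In WT the log2 fold change was 1.64 without WT LPS replicate 1, still called, and the call was lost without any 1 of the 4 steady-state libraries, at log2 fold changes of 2.40 to 2.42.

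The other 3 genes called in KO act in different compartments. Dnaja3, a class A DnaJ protein of mitochondria, had 64.0 and 71.5 CPM in KO with LPS, against 31.4 and 33.2 CPM in KO at steady state. Its log2 fold change was 1.07 ± 0.22 (edgeR adjusted p = 0.0278). Hspa13, a microsomal Hsp70 relative, had 59.1 and 83.6 CPM in KO with LPS, against 31.1 and 35.2 CPM in KO at steady state. Its log2 fold change was 1.11 ± 0.28 (edgeR adjusted p = 0.0452). Cct3, the gamma subunit of the CCT ring, had 204 and 364 CPM in KO with LPS, against 96.9 and 101 CPM in KO at steady state. Its log2 fold change was 1.52 ± 0.33 (edgeR adjusted p = 0.0304). In WT cells the log2 fold changes of these genes were 0.73 ± 0.22 for Dnaja3, 1.03 ± 0.28 for Hspa13 and 0.82 ± 0.32 for Cct3, with edgeR adjusted p of 0.097, 0.0708 and 0.161. Dnaja3 and Hspa13 kept their calls only without WT LPS replicate 1 or 2, and Cct3 also without KO LPS replicate 1. Over the libraries left out, log2 fold changes were 0.96 to 1.14 for Dnaja3, 0.81 to 1.33 for Hspa13 and 1.02 to 1.87 for Cct3.

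The CCT ring has 8 different subunits in equal numbers, and 7 of the CCT genes were tested. Differences between them were not tested. With LPS, Cct2 had 135 and 161 CPM in KO and 167 and 149.98 CPM in WT, against 156 and 164 CPM in KO and 182 and 156 CPM in WT at steady state. For Cct2 the treatments overlapped in both genotypes, whereas for Cct3 each LPS library was above each steady-state library of both genotypes. Cct7 also had its LPS libraries higher, with 156 and 215 CPM in KO and 178 and 157 CPM in WT, against 106 and 117 CPM in KO and 124 and 107 CPM in WT at steady state, but was not called (edgeR adjusted p = 0.0994 in KO). Cct8 had 155 and 238 CPM in KO and 224 and 149.7 CPM in WT with LPS, against 125 and 137 CPM in KO and 127 and 121 CPM in WT at steady state, again with no overlap and not called. The treatments overlapped for Cct4 in WT, for Cct6a in KO and for Cct5 in both genotypes.

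**Figure D2:**
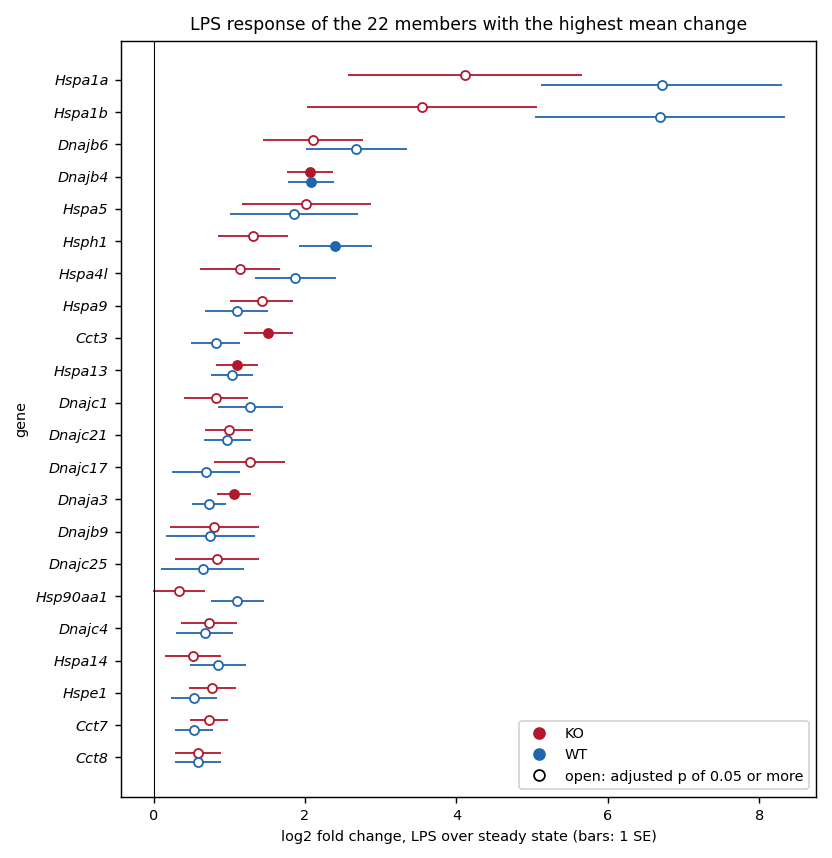
Log2 fold change of LPS over steady state (x axis) in KO (red) and WT (blue) for the 22 chaperone genes with the highest mean of both values (y axis), with bars of 1 SE and filled points for an edgeR adjusted p under 0.05. Dnajb4 is filled in both genotypes with narrow bars near 2, whereas Hspa1a and Hspa1b have the highest values and the widest bars.

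The highest fold changes belonged to Hspa1a and Hspa1b, the inducible cytosolic Hsp70 genes, and rested on few libraries. Hspa1a had 5.42 and 20.8 CPM in KO with LPS and 273 and 9.28 CPM in WT with LPS, against 0.853 and 0.620 CPM in KO and 1.16 and 1.49 CPM in WT at steady state. Hspa1b had 6.44 and 27.9 CPM in KO with LPS and 392 and 10.6 CPM in WT with LPS, against 1.396 and 1.51 CPM in KO and 2.03 and 1.86 CPM in WT at steady state. For both genes every LPS library was above every steady-state library, and WT LPS replicate 1 was 29.4 times (Hspa1a) and 36.9 times (Hspa1b) the level of WT LPS replicate 2. Because reads of the pair can be exchanged, their counts were also summed. The sum was 11.9 and 48.7 CPM in KO with LPS and 665 and 19.9 CPM in WT with LPS, against 2.25 and 2.13 CPM in KO and 3.19 and 3.35 CPM in WT at steady state. Its log2 fold change with LPS was 3.78 ± 1.46 in KO (edgeR adjusted p = 0.123) and 6.70 ± 1.605 in WT (edgeR adjusted p = 0.0536). Without WT LPS replicate 1 the log2 fold change of Hspa1a in WT was 2.80, and without WT LPS replicate 2 it was 7.66 (edgeR adjusted p = 0.00345).

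Dnajb6, a class B DnaJ protein that keeps aggregation-prone proteins soluble, had 37.1 and 98.7 CPM in KO with LPS and 187 and 50.9 CPM in WT with LPS, against 15.8 and 15.6 CPM in KO and 17.7 and 19.5 CPM in WT at steady state. All LPS libraries were above all steady-state libraries, with edgeR adjusted p of 0.0775 in KO and 0.0588 in WT. Hspa4l, an Hsp110 relative, reached 145 CPM in WT LPS replicate 1 and was at 39.97 to 70.9 CPM in the other 3 LPS libraries, against 22.8 to 29.2 CPM at steady state. Hspa9 had 250 and 498 CPM in KO with LPS and 333 and 178 CPM in WT with LPS, against 141 and 137 CPM in KO and 123 and 117 CPM in WT at steady state, with edgeR adjusted p of 0.067 in KO and 0.149 in WT. The other classical heat shock genes showed smaller differences. Dnajb1, the main DnaJ partner of inducible Hsp70, had 46.7 and 62.6 CPM in KO with LPS and 112 and 63.0 CPM in WT with LPS, against 47.8 and 42.6 CPM in KO and 48.9 and 53.8 CPM in WT at steady state. The treatments overlapped in KO. Hsp90aa1, the inducible Hsp90, had 35.8 and 51.0 CPM in KO with LPS and 86.8 and 44.7 CPM in WT with LPS, against 33.0 and 35.6 CPM in KO and 29.1 and 31.8 CPM in WT at steady state.

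The mitochondrial pair Hspd1 (Hsp60) and Hspe1 (Hsp10), which lie head to head on the genome, were also higher in KO LPS replicate 2 than in replicate 1 and in WT LPS replicate 1 than in replicate 2, by less. Hspd1 had 34.0 and 59.4 CPM in KO with LPS and 44.3 and 33.6 CPM in WT with LPS, against 31.3 and 30.1 CPM in KO and 27.8 and 28.3 CPM in WT at steady state. Hspe1 had 28.4 and 44.6 CPM in KO with LPS and 49.7 and 35.8 CPM in WT with LPS, against 21.7 and 20.8 CPM in KO and 33.1 and 25.8 CPM in WT at steady state. Neither was called in either genotype (edgeR adjusted p of 0.134 to 0.356).

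**Figure D3:**
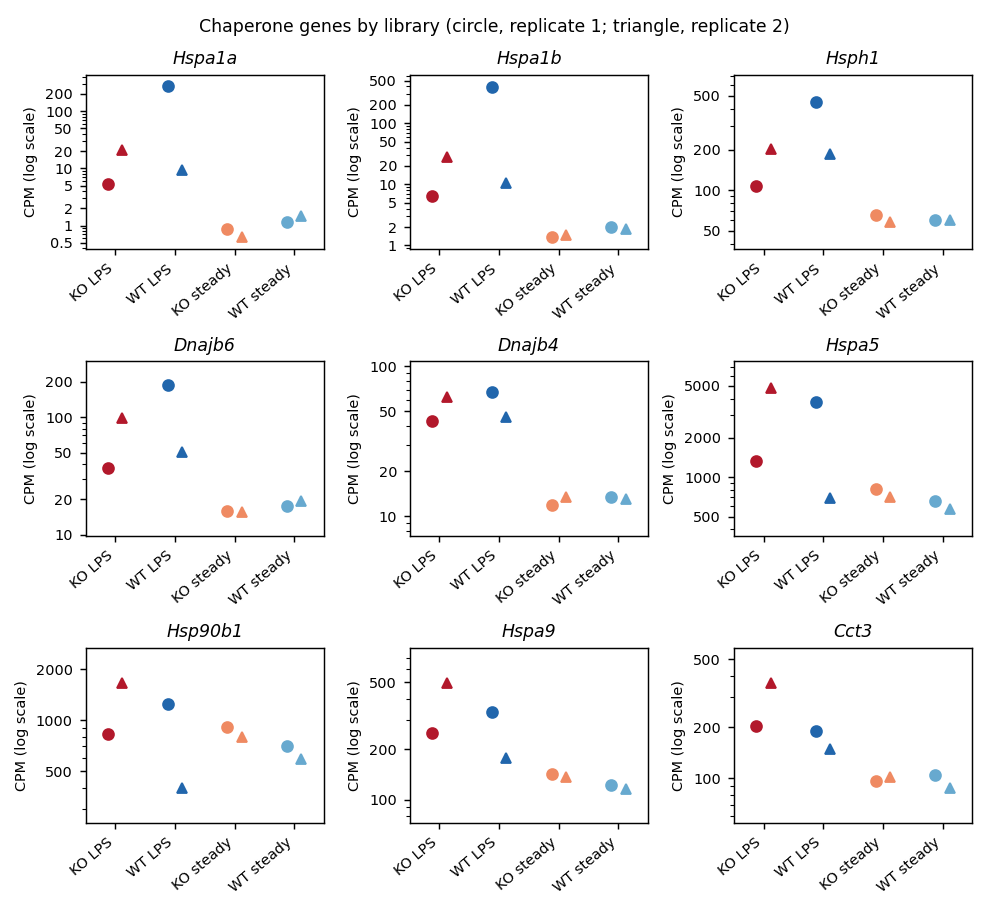
CPM on a log scale (y axis) of 9 chaperone genes in KO and WT cells with LPS and at steady state (x axis), with a circle for replicate 1 and a triangle for replicate 2. In the KO LPS group the triangle is the higher point of every panel, and in the WT LPS group the circle is; for Hspa1a the WT LPS values are 273 and 9.28 CPM.

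Of the 68 genes, Hspa5 had the widest gaps between the LPS libraries of each genotype after the Hspa1 pair. It had 1320.4 and 4818 CPM in KO with LPS and 3750 and 688 CPM in WT with LPS, against 807 and 708 CPM in KO and 662 and 568 CPM in WT at steady state. Replicate 2 was 3.65 times replicate 1 in KO with LPS, and replicate 1 was 5.45 times replicate 2 in WT with LPS. The log2 fold change with LPS was 2.02 ± 0.85 in KO and 1.85 ± 0.85 in WT (edgeR adjusted p of 0.148 and 0.21). In KO it was 2.67 without replicate 1 of the LPS group and 0.78 without replicate 2. In WT it was 0.17 without replicate 1 of the LPS group and 2.60 without replicate 2 (edgeR adjusted p = 0.0271). Hsp90b1 had 832 and 1664 CPM in KO with LPS and 1253 and 397 CPM in WT with LPS, against 917 and 796 CPM in KO and 704 and 589 CPM in WT at steady state. KO LPS replicate 1 and WT LPS replicate 2 were thus within or below the range of steady state while the other LPS library of each genotype was above it. Dnajb9 (ERdj4), a DnaJ partner of Hspa5, had 29.1 and 85.7 CPM in KO with LPS and 68.9 and 24.4 CPM in WT with LPS, against 32.6 and 33.3 CPM in KO and 26.9 and 28.3 CPM in WT at steady state. Dnajb11 (ERdj3), another partner, had 127 and 226 CPM in KO with LPS and 156 and 84.5 CPM in WT with LPS, against 115 and 105 CPM in KO and 104 and 87.1 CPM in WT at steady state. Some DnaJ proteins of the same compartment did otherwise. Dnajc10 (ERdj5), a disulfide reductase, was at 167 and 101 CPM in KO with LPS and 101 and 172 CPM in WT with LPS, and Dnajc1 was at 156 and 245 CPM in KO with LPS and 277 and 425 CPM in WT with LPS. Dnajc3, whose window holds the same element as those of Hspa5 and Hsp90b1, had 114 and 167 CPM in KO with LPS and 156 and 97.8 CPM in WT with LPS, against 168 and 153 CPM in KO and 125 and 127 CPM in WT at steady state.

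Counted over the 68 genes, 41 (60.3%) were higher both in KO LPS replicate 2 than in replicate 1 and in WT LPS replicate 1 than in replicate 2, against 35.9% of all genes tested. For 7 of them both gaps exceeded 1 on the log2 scale (10.3%, against 3.83% of all genes), namely Hspa1a, Hspa1b, Hspa5, Hspa8, Dnajb6, Dnajb9 and Dnajc25. In WT with LPS 11 of the 68 genes (16.2%) were over 1 log2 unit higher in replicate 1 and 4 (5.88%) in replicate 2, against 12.5% and 19.4% of all genes. In KO with LPS 3 (4.41%) were so in replicate 1 and 8 (11.8%) in replicate 2, against 13.7% and 6.22% of all genes. Large gaps as such were not more frequent among these genes, at 16.2% in KO with LPS (19.9% of all genes) and 22.1% in WT with LPS (31.8% of all genes). At steady state 1 gene in KO (1.47%, against 4.76% of all genes) and 2 in WT (2.94%, against 6.59% of all genes) had a gap over 1 in either direction. Since the genes share the same libraries, these counts describe the libraries and not independent events.

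**Figure D4:**
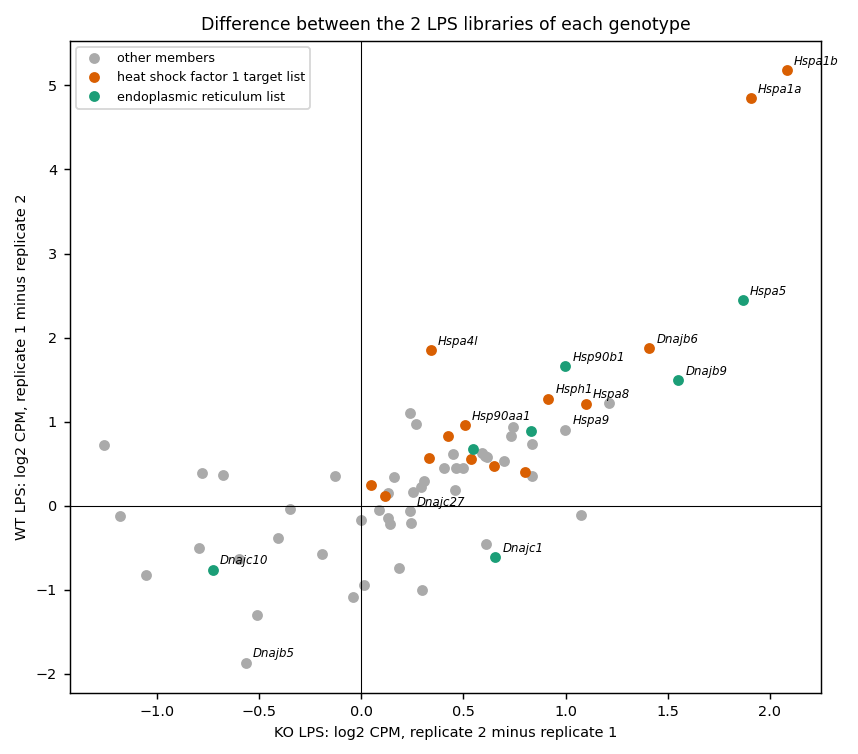
Difference in log2 CPM between the LPS libraries of KO cells (x axis, replicate 2 minus replicate 1) and of WT cells (y axis, replicate 1 minus replicate 2) for the 68 chaperone genes, with heat shock factor 1 targets in orange and endoplasmic reticulum genes in green. The upper right part, where both differences are above 0, holds 41 genes, with Hspa1b, Hspa1a and Hspa5 farthest out.

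Lists of related genes, which overlap in part with the set and with each other, were counted in the same way. Of 29 genes of endoplasmic reticulum chaperones and the unfolded protein response, of which 22 are not among the 80, 25 were higher in both KO LPS replicate 2 and WT LPS replicate 1 and 13 by over 1 log2 unit in each. Hyou1, an Hsp110 relative that resets Hspa5, had 236 and 518 CPM in KO with LPS and 564 and 182 CPM in WT with LPS. Atf4, a stress-induced transcription factor, had 387 and 1305 CPM in KO with LPS and 1349.9 and 345 CPM in WT with LPS. The count was 16 of 20 for heat shock factor 1 targets (4 by over 1), of which 6 are not among the 80, and the 4 (Hspa1a, Hspa1b, Hspa8 and Dnajb6) are all counted above. It was 13 of 15 for mitochondrial chaperones (1 by over 1), of which 8 are not among the 80. Co-chaperones, immediate early genes and heat shock factors hold no gene of the 80. The co-chaperone list also holds chaperones outside the 80, such as Trap1 and the CCT subunit Tcp1. The count was 20 of 31 for co-chaperones (1 by over 1, Grpel1, the same gene as among mitochondrial chaperones). The 6 heat shock factor 1 targets outside the 80 are also in the co-chaperone list. It was 7 of 16 for immediate early genes such as Fos, which respond within minutes to handling (3 by over 1), and 2 of 4 for heat shock factors (0 by over 1). The median gap of endoplasmic reticulum genes was -0.95 in KO with LPS (replicate 1 minus replicate 2) and 1.18 in WT with LPS, against 0.04 in KO and -0.03 in WT over all genes. It was -0.47 in KO and 0.57 in WT for heat shock factor 1 targets and -0.62 in KO and 0.62 in WT for mitochondrial chaperones. For immediate early genes it was -0.60 in KO and 0.82 in WT, for co-chaperones -0.33 in KO and 0.37 in WT, and for heat shock factors -0.21 in KO and 0.19 in WT.

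With LPS against steady state, genes of these lists were called in both directions. Over all 12442 genes tested, edgeR called 11.8% in KO and 6.49% in WT. In WT, DESeq2 called 16% of all genes, and 3324 had an unadjusted edgeR p under 0.05. Whether any list differed from these shares was not tested. In KO, Trib3 (log2 fold change 4.96 ± 0.56) and Ddit3 (3.95 ± 0.86), both induced by endoplasmic reticulum stress, were called higher with edgeR adjusted p of 0.00485 and 0.0309, and Eif2ak3, the stress sensor PERK, was called lower (-1.15 ± 0.28, edgeR adjusted p = 0.0428). In WT, Trib3 (3.75 ± 0.53, edgeR adjusted p = 0.011) and Ern1, the stress sensor IRE1 (1.79 ± 0.34, edgeR adjusted p = 0.0277), were called higher. Of mitochondrial chaperones, Dnaja3, Hscb and Lonp1 were called higher in KO. In WT, edgeR called 0 of 15, with 6 at an unadjusted p under 0.05 and 2 called by DESeq2 (Trap1 and Lonp1). Of 31 co-chaperones, Cacybp was called higher and Fkbp5, which is known to follow glucocorticoid signals, lower in KO (-2.28 ± 0.37, edgeR adjusted p = 0.014). In WT, edgeR called 0 of the 31, with 6 at an unadjusted p under 0.05 and 2 called by DESeq2 (Fkbp5 and Trap1). Trap1 is the gene already counted among mitochondrial chaperones. Of 20 heat shock factor 1 targets, Dnajb4 and Cacybp were called in KO and Dnajb4 and Hsph1 in WT, all higher. Cacybp is the gene already counted among co-chaperones. Of 4 heat shock factors, Hsf2 was called lower in KO, with 42.1 and 26.6 CPM with LPS, against 68.2 and 74.1 CPM at steady state. The log2 fold change was -1.05 ± 0.26 with an edgeR adjusted p of 0.0449. In WT, edgeR and DESeq2 called 0, with 1 at an unadjusted p under 0.05. Of 16 immediate early genes, Egr2 and Btg2 were called lower in KO, and in WT Egr2 was called lower and Dusp1 higher. The median log2 fold change with LPS was 0.68 in KO and 0.53 in WT for endoplasmic reticulum genes and 0.78 in KO and 0.72 in WT for mitochondrial chaperones, against -0.02 and 0.00 over all genes.

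Between KO and WT cells no chaperone gene was called. With LPS 0 of 68 were called, where 0.772% of all genes were, and 9 had an unadjusted p under 0.05 (2 higher and 7 lower in KO). Of all genes 2108 had such a p (931 higher and 1177 lower). DESeq2 called 5 of the 68 (7.35%, against 8.54% of all genes), all lower in KO with LPS, namely Hspa8, Hspbap1, Dnajb2, Dnajc12 and Hspa1a. At steady state edgeR called 0 of 68, where 0% of all genes were called. Of the 68, 3 had an unadjusted p under 0.05, all lower in KO, and DESeq2 called 0, whereas of all genes 327 had such a p and DESeq2 called 27. The median log2 fold change of KO over WT was -0.01 with LPS and -0.06 at steady state, against -0.01 and -0.01 over all genes.

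All 4 KO libraries lay below all 4 WT libraries for 6 of the 68 genes, against 2.54% of all genes, and all 4 lay above for 0 of 68, against 2.12% of all genes. The 6 were Hspa8, Hspbap1, Dnajb2, Dnajc12, Dnajc7 and Hsp90ab1. Hspa8, the constitutive cytosolic Hsp70 (Hsc70), had 16.3 and 35.1 CPM in KO with LPS, against 201 and 86.4 CPM in WT with LPS, and 33.4 and 29.9 CPM in KO at steady state, against 126 and 90.6 CPM in WT at steady state. Its log2 fold change of KO over WT was -2.49 ± 0.51 with LPS (edgeR adjusted p = 0.0785) and -1.77 ± 0.49 at steady state (edgeR adjusted p = 1), and with LPS it ran from -3.16 to -1.76 as each library was left out. Of the stretches of 50 bases in its transcript 25.2% were in no other gene, and 12 of the 13 genes that share the rest are pseudogenes, so that the level of Hspa8 in the table, 32.3 CPM per kb, is that of the reads assigned to it. The part of read assignment in the difference was not tested.

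Dnajb2, a DnaJ protein that hands unfolded proteins to the proteasome, had 35.8 CPM in both KO libraries with LPS, against 69.8 and 78.9 CPM in WT with LPS, and 34.0 and 32.6 CPM in KO at steady state, against 44.3 and 54.6 CPM in WT at steady state. The log2 fold change was -1.05 ± 0.22 with LPS (edgeR adjusted p = 0.0797). Hspbap1, named for binding the small heat shock protein Hspb1, had 7.23 and 8.57 CPM in KO with LPS, against 38.1 and 17.7 CPM in WT with LPS, and 17.1 and 12.6 CPM in KO at steady state, against 23.2 CPM in both WT libraries at steady state. The log2 fold change was -1.81 ± 0.41 with LPS (edgeR adjusted p = 0.0899), and -1.17 without WT LPS replicate 1. Dnajc12 had 15.02 and 8.57 CPM in KO with LPS, against 23.9 and 34.1 CPM in WT with LPS, and 23.6 and 21.3 CPM in KO at steady state, against 26.6 and 30.3 CPM in WT at steady state. With LPS its edgeR adjusted p was 0.119. The remaining 2 differed less. Hsp90ab1 had 978 and 1059.9 CPM in KO with LPS, against 1503 and 1385 CPM in WT with LPS, and 1189 and 1108 CPM in KO at steady state, against 1422 and 1294 CPM in WT at steady state. Dnajc7, which carries proteins between Hsp70 and Hsp90, had 102 and 111 CPM in KO with LPS, against 154 and 138 CPM in WT with LPS, and 116 and 131 CPM in KO at steady state, against 140.4 and 133 CPM in WT at steady state.

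**Figure D5:**
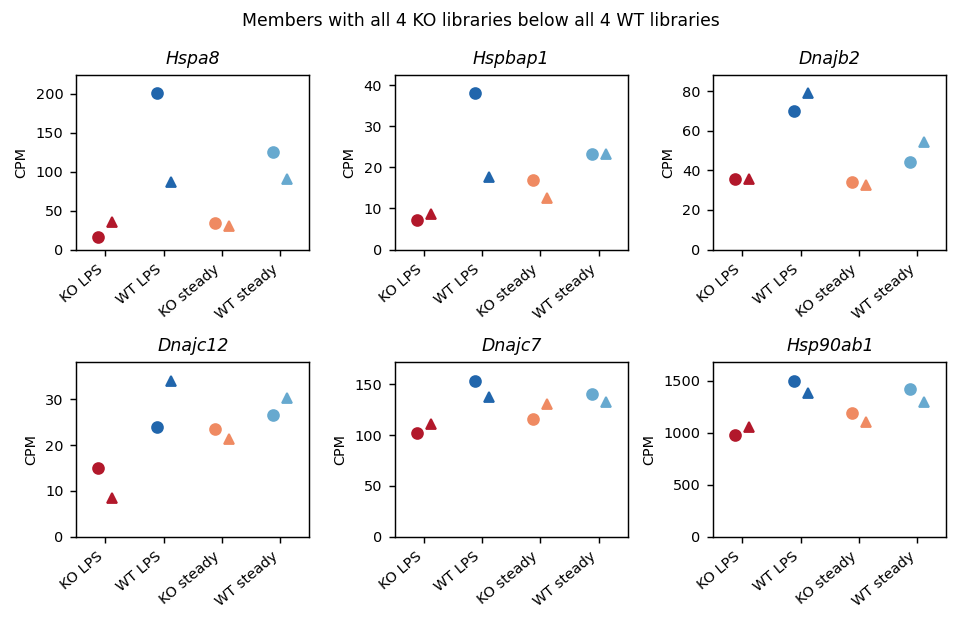
CPM (y axis) of the 6 chaperone genes whose 4 KO libraries all lay below their 4 WT libraries, by group (x axis), with a circle for replicate 1 and a triangle for replicate 2. The gap is widest for Hspa8, at 16.3 to 35.1 CPM in KO and 86.4 to 201 CPM in WT, and narrow for Dnajc7.

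For Hspa1a and Hspa1b the genotype difference with LPS changed sign with 1 library. The log2 fold change of KO over WT was -3.43 ± 1.33 for Hspa1a and -3.56 ± 1.398 for Hspa1b (edgeR adjusted p of 0.249 and 0.255), and without WT LPS replicate 1 it was 0.48 for Hspa1a and 0.67 for Hspa1b. For Hspa5 it was 0.47 ± 0.82, and -0.77 without KO LPS replicate 2. The difference of the LPS responses, KO minus WT, was called by edgeR for 0 of 68 genes, where 0% of all genes were called. An unadjusted p under 0.05 was reached by 2 of them, and DESeq2 called 0, while 797 of all genes had such a p and DESeq2 called 113. These 2 were Dnajc15, a DnaJ protein of the inner mitochondrial membrane, and Hspa12a, which was below 2 CPM in every library. Dnajc15 had 37.3 and 56.3 CPM in KO with LPS, against 26.7 and 17.3 CPM in WT with LPS. Its difference of responses was 1.33 ± 0.50 on the log2 scale (edgeR adjusted p = 0.714).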

How the data were processed

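The authors deposited whole-number read counts per gene for 8 libraries. Per the submitters' processing notes, mm10 was the build and featureCounts, edgeR 3.6.8, Subread 1.4.3 and TopHat2 2.0.8 were used, in roles that are not stated. The TruSeq kit named in the labels' protocols does not mark strand. In R 4.3.3, edgeR 4.0.16 kept 12442 genes (filterByExpr, minimum count 10, minimum total 15), scaled libraries with TMM factors (0.816 to 1.11) and ran its quasi-likelihood F test, two-sided, with 1 coefficient per group over all 8 libraries, for 5 comparisons: KO against WT under both treatments, LPS against steady state for KO and for WT, and the interaction. Benjamini-Hochberg adjustment ran over all genes tested. The procedure was tested on simulated data with the same assumed spread for every gene and group. That test does not show how the procedure does under the unequal spread of the libraries here. Each SE of an edgeR log2 fold change was derived from the test, as the size of the fold change divided by the square root of its F statistic. CPM uses TMM-scaled library sizes, and gaps between libraries use log2 CPM with a prior count of 2. Alternatives were RLE factors, other filters, DESeq2 1.42.0, the replicate number as a block, Hspa1a and Hspa1b summed, and each library left out. Named were the genes called, the 3 most abundant of each family, those with the largest gaps or smallest p, and classical heat shock genes (others were picked after seeing their values). The genes and lists were chosen with earlier results of these data known.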

Additional observations from a re-analysis of the deposited data

How the results depend on the processing

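RLE factors and a stricter filter changed none of the counts of calls by over 1.5 times. For KO against WT with LPS, chaperone genes called were 0 in the report, 2 without a filter, 5 with DESeq2 and 0 to 4 as each library was left out, and all genes called were 96, 538, 1062 and 1 to 826. For LPS in KO, chaperone genes called were 4, 9 without a filter, 11 with DESeq2 and 0 to 13 as each library was left out (13 without WT LPS replicate 1 or 2), and all genes called were 1463, 2223, 2846 and 143 to 3345. For LPS in WT they were 2, 6, 9 and 0 to 18 (18, or 26.1%, without WT LPS replicate 2, where 28.3% of all genes were called), and all genes called were 807, 1497, 1995 and 70 to 3629. At steady state all genes called between KO and WT were 0, 9 without a filter, 27 with DESeq2 and 0 to 1 as each library was left out, and for the interaction 0, 3, 113 and 0 to 0. Deviations of same-numbered libraries from their group means correlated at -0.60 between KO and WT with LPS, 0.17 between KO and WT at steady state, and 0.11 in KO and 0.26 in WT between LPS and steady state. No label ties a number to an animal, batch or day, so the numbers were not taken to pair libraries. With the replicate block, chaperone genes called were 1 (Dnajb4) in each genotype with LPS against steady state, and all genes called were 776 in KO, 465 in WT and 8 for KO against WT with LPS. A crossed replicate block, chosen after seeing the data, called 1 chaperone gene and 273 genes for KO against WT with LPS. Of 445 alternative values of single genes, 10 had the opposite sign, all with a library left out. As each library was left out, log2 fold changes of KO over WT with LPS ran from -0.00 (-0.0043, without KO LPS replicate 2) to 1.65 for Hsp90b1 (-0.0011 without WT LPS replicate 2), from -4.71 to 0.48 for Hspa1a, from -4.98 to 0.67 for Hspa1b, both highest without WT LPS replicate 1, and from -0.77 (without KO LPS replicate 2) to 2.15 for Hspa5, which was -0.29 without WT LPS replicate 2. With LPS against steady state they ran from -0.064 to 0.96 for Hsp90b1 and from -0.98 to 0.14 for Hspa8 in KO, and from -0.70 to 0.95 for Hsp90b1 and from -0.32 to 0.89 for Hspa8 in WT, each pair of ends set by an LPS library of that genotype. A left-out library leaves its group with 1, assumed to vary like the others, and the cause of these moves was not tested.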
